A study of Homo sapiens with 8 samples.

Results

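The AP-1 family was described from 10 of the 58219 genes listed in the deposited expression tables, namely the Jun genes JUN, JUNB and JUND, the Fos genes FOS, FOSB, FOSL1 and FOSL2, and the related genes BATF, BATF3 and JDP2. All 10 were found by symbol, and all 10 passed the filter on low counts. The family was selected on values of these same libraries, because the fluvastatin response of JUN was known when the genes were listed. The fluvastatin contrasts below are therefore a description, in which passing the threshold relates a value to its spread and supports nothing further. The listing of the genes did not use the contrast of the untreated lines or how far the 2 lines differed in their response. The 8 RNA-seq libraries came from H929 (NCI-H929) and KMS11, established multiple myeloma (MM) cell lines that both carry t(4;14), a translocation that brings FGFR3 and NSD2 under immunoglobulin heavy chain control. Each line was exposed for 24 h to 2 µM fluvastatin, which inhibits HMG-CoA reductase in the mevalonate pathway, or to ethanol as the solvent, and each of the 4 groups had 2 replicates. By the study's methods, no gene was altered experimentally for these libraries, but the study lists KMS11 among the lines with an FGFR3 mutation. Each line stands for 1 MM cell population. The labels do not tie replicates to separate cultures, although the study's methods call them biological, so errors and p-values measure the spread between these samples.

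AP-1 factors are leucine zipper proteins that bind DNA as dimers. Jun proteins pair with each other or with Fos proteins, whereas Fos proteins need a Jun partner, and the dimers bind the TRE element (TGACTCA) or, with ATF and CREB partners, the CRE element (TGACGTCA). JUN and FOS are classic immediate early genes that growth factors and stress kinases switch on within minutes, and JUN is known to act on its own promoter. BATF and BATF3 dimerize with Jun proteins and in immune cells bind DNA together with IRF factors such as IRF4, on which MM cells depend. JDP2 dimerizes with Jun proteins and is known as a repressor of AP-1 sites.

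Expected counts, the fragments that RSEM assigns to each gene, summed to between 26702515 and 41910446 per library, of which 85.2% to 91.4% fell on protein-coding genes. Replicates of every group differed by more than counting error. Values are given in CPM, counts scaled to the protein-coding library total after TMM normalization, which compare 1 gene between libraries, or in TPM, transcripts scaled to a fixed total, which are per length and compare genes with each other. Of the 8 plasma cell and t(4;14) markers, the lowest value in any library was 5.33 TPM, of FGFR3 in H929, except for CD38, which stood at 0.01 to 0.04 TPM in the KMS11 libraries. Of 10 markers of other cell types, 8 were under 1 TPM in both libraries of each group, while EPCAM stood at 30.2 to 35.9 TPM in KMS11, CD3E at 1.49 to 3.54 TPM in H929 and PECAM1 at 0.87 to 1.48 TPM in KMS11 and 5.87 to 7.98 TPM in H929. Their part in the results was not tested. In bulk RNA, fewer cells of a type and less RNA per cell cannot be told apart.

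Promoter sequence, taken as the 250 bases before the start, was given by RefSeq (GRCh38.p14) for 8 of the 10 genes. FOSL1 and BATF3 were not matched. The sequences of JUN (chr1:58784048-58784297, minus strand), JUND (chr19:18281623-18281872, minus strand), FOSL2 (chr2:28392608-28392857, plus strand) and JDP2 (chr14:75427474-75427723, plus strand) are shown because these 4 genes were higher with fluvastatin in the fit over both lines. Capitals mark TRE-like and CRE-like letters, that is TGACTCA, TGACGTCA, TGACATCA, TTACCTCA and the CRE core TGACG, each searched on both strands.
JUN: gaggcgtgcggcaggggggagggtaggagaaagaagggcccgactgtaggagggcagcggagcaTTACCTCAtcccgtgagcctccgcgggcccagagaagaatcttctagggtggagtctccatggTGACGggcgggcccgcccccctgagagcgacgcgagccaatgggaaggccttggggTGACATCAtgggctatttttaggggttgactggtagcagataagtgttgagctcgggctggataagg
JUND: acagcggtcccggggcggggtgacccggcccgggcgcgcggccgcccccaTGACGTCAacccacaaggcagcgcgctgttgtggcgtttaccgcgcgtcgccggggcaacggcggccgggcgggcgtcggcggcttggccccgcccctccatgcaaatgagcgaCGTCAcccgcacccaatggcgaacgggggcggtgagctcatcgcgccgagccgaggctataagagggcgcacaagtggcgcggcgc
FOSL2: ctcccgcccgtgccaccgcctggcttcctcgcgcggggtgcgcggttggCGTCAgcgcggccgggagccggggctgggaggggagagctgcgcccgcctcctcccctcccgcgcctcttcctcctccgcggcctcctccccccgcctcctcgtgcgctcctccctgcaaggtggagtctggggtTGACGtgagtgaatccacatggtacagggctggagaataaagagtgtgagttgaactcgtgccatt
JDP2: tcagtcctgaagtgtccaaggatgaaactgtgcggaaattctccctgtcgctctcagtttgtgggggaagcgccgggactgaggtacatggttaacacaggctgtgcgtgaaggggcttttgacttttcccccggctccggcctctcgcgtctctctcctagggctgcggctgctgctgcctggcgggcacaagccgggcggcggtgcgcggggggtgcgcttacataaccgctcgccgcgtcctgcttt
JUN carried TGACATCA at position -67 and TTACCTCA at position -186, counted from the base before the RefSeq start, and these letters occurred in 1.95% and 0.577% of 22199 protein-coding promoters of the same length. The letters TGACATCA and TTACCTCA are known as the Jun-type TRE elements of this promoter. JUND carried the full CRE letters TGACGTCA at position -200, found in 2.01% of promoters. Both strands of the core TGACG lie inside that CRE match, and the core also stood at position -86. FOSL2 had only the CRE core, at positions -201 and -66, which 24.2% of promoters hold. By GENCODE release 44 FOSL2 starts at 28392448, so its window, placed by the RefSeq start, lies inside the GENCODE gene. JUNB at -137, FOS at -64 and FOSB at -60 also had the core, while JDP2 and BATF had none of the capital-marked letters. The letters TGACTCA, found in 3.45% of promoters, were in none of the 8 promoters. A match describes these letters in this window and is no site of binding, and its link to the responses was not tested.

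JUN was the member with the highest response in both lines. JUN (ENSG00000177606.6, chr1:58776845-58784048 in GRCh38 by GENCODE release 44, minus strand), which encodes the strongest activator among the Jun proteins, stood at 5.61 and 4.04 CPM in the ethanol libraries of H929 and at 59.4 and 62.9 CPM in the fluvastatin libraries. In KMS11, JUN stood at 5.06 and 3.83 CPM in ethanol and at 38.6 and 35.5 CPM in fluvastatin. The treated libraries lay far above the untreated ones in both lines, with no overlap. The log2 fold change was 3.65 ± 0.19 (SE) in H929, 3.06 ± 0.18 in KMS11 and 3.36 ± 0.18 over both lines, where JUN ranked 47 from the top of 13129 genes tested. In TPM, JUN passed from above 48.5% and 47.1% of protein-coding genes in the ethanol libraries of H929 to above 74.3% and 75.2% in the fluvastatin libraries. These shares are of all 19683 annotated protein-coding genes, whether expressed or not. In KMS11 the same shares were 48.7% and 47.2% in ethanol and 67.5% and 67.0% in fluvastatin.

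JUND (ENSG00000130522.5, chr19:18279694-18281622, minus strand) encodes the Jun protein that is usually made without stimulation. In H929, JUND stood at 9.94 and 7.08 CPM in ethanol and at 24.3 and 17.1 CPM in fluvastatin. KMS11 had 9.45 and 10.2 CPM in ethanol and 43.3 and 39.6 CPM in fluvastatin. All treated libraries were above all untreated libraries of their line. The log2 fold changes were 1.27 ± 0.20 in H929, 2.08 ± 0.20 in KMS11 and 1.69 ± 0.21 over both lines. JUNB (ENSG00000171223.5, chr19:12791486-12793315, plus strand) encodes a weaker activator that can oppose JUN at some promoters. JUNB stood at 16.1 and 11.4 CPM in ethanol and at 15.7 and 9.62 CPM in fluvastatin in H929, and at 4.12 and 3.25 CPM against 8.59 and 3.71 CPM in KMS11. Treated and untreated libraries overlapped in both lines, and replicate 1 was the higher library in each of the 4 groups, by 1.27 to 2.32 times. The log2 fold change of JUNB was -0.12 ± 0.36 in H929 and 0.72 ± 0.38 in KMS11, neither past the threshold. The JUNB value in KMS11 was 1.17 and passed once replicate 2 of the KMS11 fluvastatin group was left out, was -0.00 once replicate 1 of that group was left out, and was 0.13 with the trend of each library's counts with GC content removed.

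Among the Fos genes, FOSL2 (ENSG00000075426.11, chr2:28392448-28417317, plus strand) was the most abundant in H929. It encodes FRA2, a Fos protein without the strong activation domain of FOS. FOSL2 stood at 21.5 and 17.7 CPM in ethanol and at 27.3 and 25.7 CPM in fluvastatin in H929, and at 2.19 and 2.43 CPM against 5.63 and 4.23 CPM in KMS11. Treated libraries were above untreated ones in both lines. The log2 fold change was 0.43 ± 0.17 in H929, which did not pass the threshold, 1.08 ± 0.20 in KMS11 and 0.73 ± 0.18 over both lines, which did. In H929 it passed in 6 of the alternatives, among them median-of-ratios scaling (0.45) and removal of the GC trend (0.38). In KMS11 it did not pass with limma on log2(TPM + 1) (0.30) or log2(TPM + 0.1) (0.84). The FOSL2 call over both lines was lost without any 1 of 7 libraries (values 0.61 to 0.86), the exception being KMS11 fluvastatin replicate 1, and the call in KMS11 was lost without ethanol replicate 1 (0.98), ethanol replicate 2 (1.13) or fluvastatin replicate 1 (0.86).

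FOSL1 (ENSG00000175592.8, chr11:65892049-65900573, minus strand), which encodes FRA1, was the only member that fell past the threshold in any main comparison of treatments. It had 116 and 88 counts in the ethanol libraries of H929 and 44 and 36 in the fluvastatin libraries, with no overlap. The log2 fold change in H929 was -1.15 ± 0.33. This call was lost without ethanol replicate 1 (-1.06), ethanol replicate 2 (-1.22) or fluvastatin replicate 2 (-0.95), and with DESeq2 (-1.13). In KMS11 the 4 libraries held 0, 0, 1 and 0 counts of FOSL1, so that no response was measurable at this depth.

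FOS (ENSG00000170345.9, chr14:75278826-75282230, plus strand) and FOSB (ENSG00000125740.13, chr19:45467995-45475179, plus strand) encode the Fos proteins with strong activation domains, and both were low. FOS stood at 1.40 and 0.720 CPM in ethanol and at 1.54 and 1.73 CPM in fluvastatin in H929, and at 0.783 and 0.711 CPM against 1.01 and 0.783 CPM in KMS11. In CPM the groups did not overlap, but in KMS11 the lowest treated library and the highest untreated one were equal to 3 digits, and in TPM these groups shared the value 0.29. The log2 fold change was 0.61 ± 0.36 in H929 and 0.25 ± 0.37 in KMS11. FOSB had 65 and 28 counts in ethanol and 59 and 35 in fluvastatin in H929, and 7 and 3 against 11 and 4 counts in KMS11. Treated and untreated FOSB libraries overlapped in both lines. Its log2 fold change was 0.25 ± 0.49 in H929 and 0.79 ± 0.85 in KMS11. Neither gene passed the threshold in the treatment contrasts by edgeR, and FOS passed in H929 with limma on log2(TPM + 1) (0.25).

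JDP2 (ENSG00000140044.12, chr14:75427716-75474111, plus strand) had the second highest response of the family over both lines. It stood at 0.851 and 0.520 CPM in ethanol and at 3.60 and 3.26 CPM in fluvastatin in H929, and at 0.391 and 0.164 CPM against 1.30 and 1.07 CPM in KMS11. The groups did not overlap, but the counts behind them were low, with 15 and 6 in KMS11 ethanol against 36 and 41 in KMS11 fluvastatin. The log2 fold change was 2.30 ± 0.38 in H929, 2.06 ± 0.43 in KMS11 and 2.20 ± 0.30 over both lines. In KMS11 JDP2 did not pass with limma on log2(TPM + 1) (0.48) or log2(TPM + 0.1) (1.48), and DESeq2 gave it no adjusted p. The call in KMS11 was lost without ethanol replicate 1 (2.78), ethanol replicate 2 (1.55) or fluvastatin replicate 1 (1.91). BATF (ENSG00000156127.6, chr14:75522455-75546993, plus strand) had 0.919 and 0.920 CPM in ethanol and 0.966 and 0.846 CPM in fluvastatin in H929, and 1.83 and 2.32 CPM against 3.10 and 1.77 CPM in KMS11. BATF3 (ENSG00000123685.8, chr1:212686417-212699840, minus strand) had 0.783 and 1.08 CPM in ethanol and 1.41 and 1.69 CPM in fluvastatin in H929, and 1.62 and 1.83 CPM against 2.09 and 1.25 CPM in KMS11. Treated and untreated groups of BATF overlapped in both lines and those of BATF3 in KMS11. The log2 fold changes of BATF were -0.02 ± 0.38 in H929 and 0.22 ± 0.31 in KMS11, and those of BATF3 were 0.74 ± 0.36 and -0.06 ± 0.32, none past the threshold. JDP2, BATF and FOS lie on chromosome 14 within a stretch from 75278826 to 75546993. Of these 3 neighbors JDP2 alone passed the threshold in the treatment contrasts of the main edgeR fits.

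**Figure D1:**
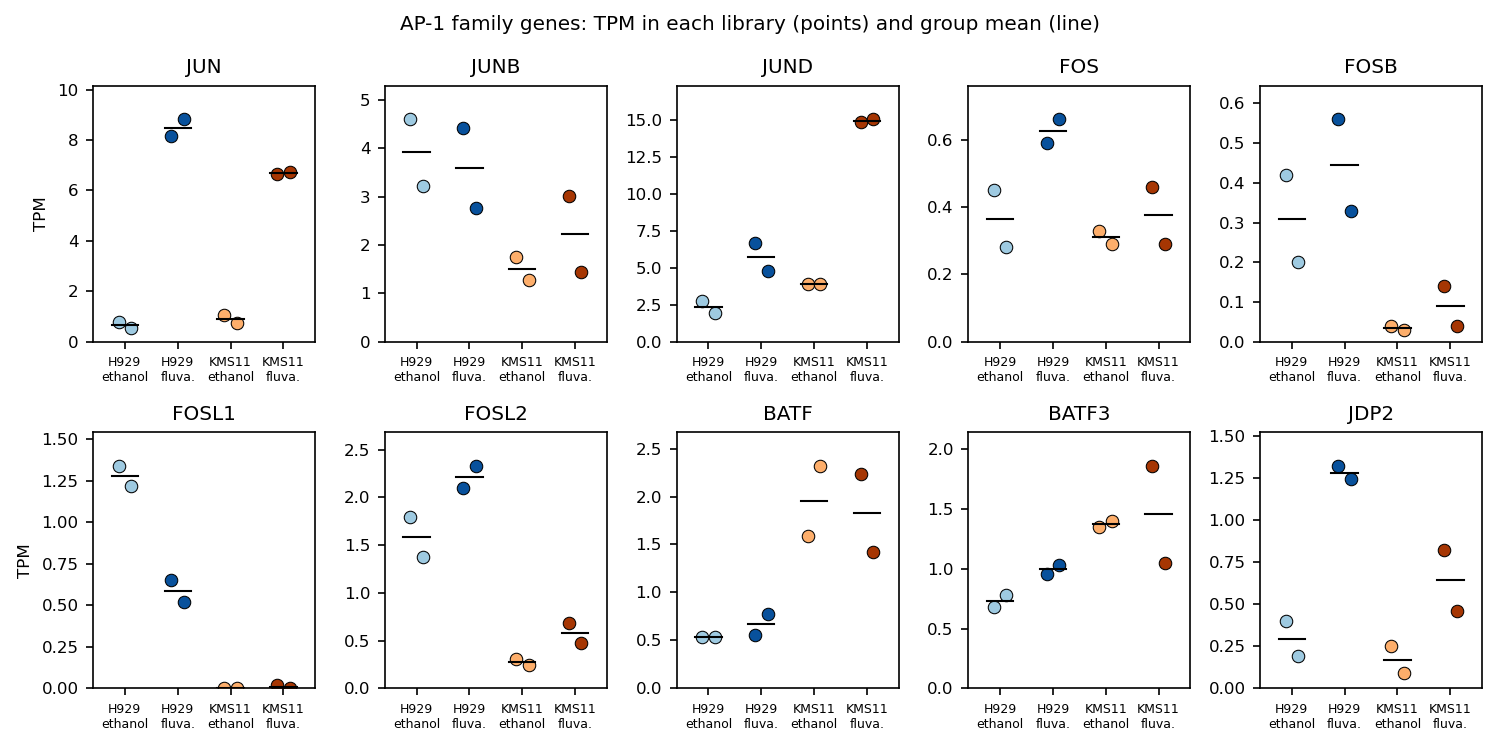
TPM of each AP-1 gene (y axis, each panel from 0 on its own scale) in each library (points, replicate 1 left and replicate 2 right) by line and treatment (x axis), with the group mean as a line. JUN rose from 0.56 to 0.79 TPM to 8.17 to 8.82 TPM in H929, and FOSL1 was at 0.02 TPM or less in KMS11.

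Over both lines, 4 of the 10 members were higher with fluvastatin at an adjusted p under 0.05 (JUN, JUND, FOSL2 and JDP2) and 0 were lower, beside 6.50% of all 13129 genes higher and 3.93% lower. At an unadjusted p under 0.05, FOSL1 was also lower in edgeR, in DESeq2 and in limma on log2(TPM + 1), and the adjusted call count was 4 higher and 0 lower in all 3 tools. Within H929, 3 members were higher and 1 lower, beside 22.7% and 19.3% of all genes. Within KMS11, 4 members were higher and 0 lower, beside 2.58% and 0.533% of all genes. Since the family was chosen from this contrast, nothing is read from these shares. In CPM, 5 members (JUN, JUND, FOS, FOSL2 and JDP2) had every treated library above every untreated library of the same line in both lines, as did 12.6% of all genes. In TPM the same held for 4, without FOS. The median log2 fold change of the 10 members over both lines was 0.43, against 0.03 over all genes. With no term for the cell line, JUN alone of the members passed.

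**Figure D2:**
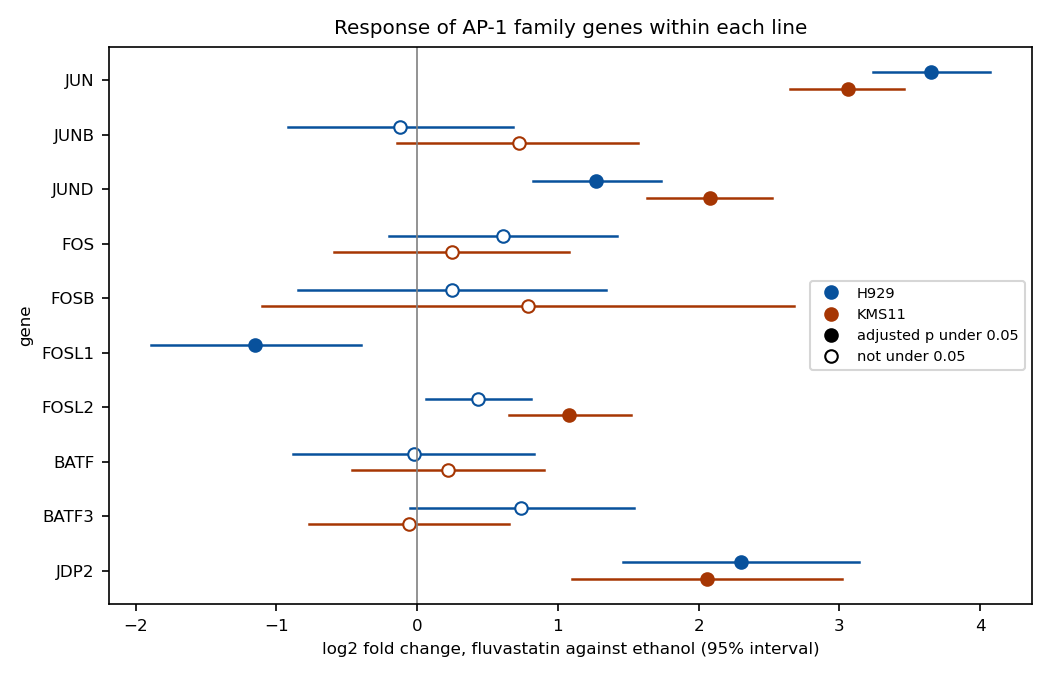
Log2 fold change of each AP-1 gene (y axis) for fluvastatin against ethanol (x axis) in H929 (blue) and KMS11 (brown) with 95% intervals from edgeR, filled where the adjusted p was under 0.05. JUN, JUND and JDP2 are filled and right of 0 in both lines, and FOSL1 is shown for H929 alone.

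The make-up of the family differed between lines and treatments. Summed TPM of the 10 genes was 13.79 and 10.32 in H929 ethanol and 26.01 and 23.25 in H929 fluvastatin, and 10.58 and 10.28 against 30.7 and 26.92 in KMS11. The Jun genes made up most of the sum in every library, with 5.74 to 8.17 TPM in the untreated and 16.36 to 24.49 TPM in the treated libraries. The Fos genes summed to 3.08 to 4.00 TPM in H929 and 0.56 to 1.30 TPM in KMS11. JUNB was the highest member in H929 ethanol and JUN in H929 fluvastatin, while JUND was the highest member in KMS11 with either treatment.

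In H929 ethanol the order by TPM was JUNB (3.23 to 4.60), JUND (1.95 to 2.78), FOSL2 (1.38 to 1.79), FOSL1 (1.22 to 1.34), BATF3 (0.68 to 0.78), JUN (0.56 to 0.79), BATF (0.53 to 0.54), FOS (0.28 to 0.45), FOSB (0.20 to 0.42) and JDP2 (0.19 to 0.40). The ranges of BATF3 and JUN overlapped, as did those of FOS, FOSB and JDP2. With fluvastatin, the order in H929 became JUN (8.17 to 8.82), JUND (4.78 to 6.67), JUNB (2.76 to 4.43), FOSL2 (2.10 to 2.33), JDP2 (1.24 to 1.32) and BATF3 (0.96 to 1.03), followed by BATF, FOS, FOSL1 and FOSB, whose neighboring ranges overlapped. JUN moved from the sixth to the first place and JDP2 from the last to the fifth.

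In KMS11 ethanol the order was JUND (3.90 to 3.91), BATF (1.59 to 2.32), JUNB (1.28 to 1.75), BATF3 (1.35 to 1.40) and JUN (0.73 to 1.05), then FOS, FOSL2 and JDP2 between 0.09 and 0.33, FOSB at 0.03 to 0.04 and FOSL1 listed at 0. The neighbors BATF and JUNB, JUNB and BATF3, FOS and FOSL2, and FOSL2 and JDP2 overlapped. With fluvastatin, JUND (14.83 to 15.01) and JUN (6.64 to 6.74) stood apart from all others, and JUNB (1.44 to 3.02), BATF (1.42 to 2.23) and BATF3 (1.05 to 1.86) overlapped with each other.

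**Figure D3:**
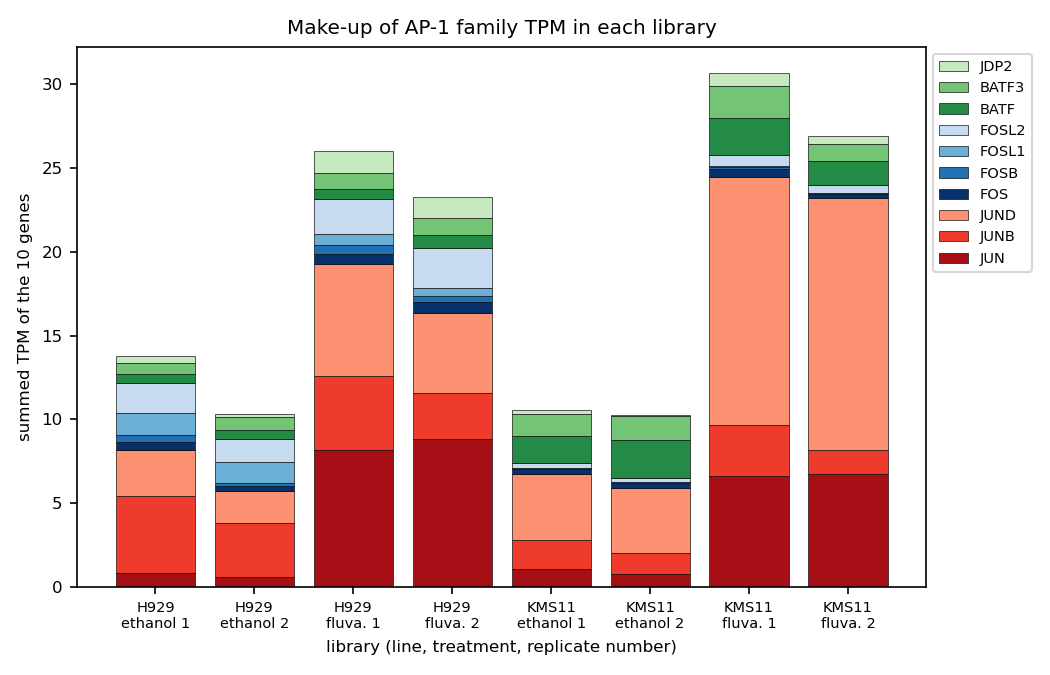
Summed TPM of the 10 AP-1 genes (y axis) in each library (x axis), stacked by gene with Jun genes in red, Fos genes in blue and BATF, BATF3 and JDP2 in green. The sum is 10.28 to 13.79 TPM in ethanol and 23.25 to 30.7 TPM in fluvastatin, and JUN and JUND together are the largest part of each treated bar.

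To ask whether the lines responded differently, the response of H929 was subtracted from that of KMS11. The same edgeR fit called 0 of the 10 members at an adjusted p under 0.05, beside 11.7% of all genes with a higher response in KMS11 and 11.5% with a lower one. At an unadjusted p under 0.05 there were 3. The adjusted calls alone held 11.7% and 11.5% of all genes, so nothing is read from this number. DESeq2 called JUND alone, as did edgeR with a block for each line's replicate number (0.80). The JUND difference was 0.80 (95% interval 0.18 to 1.43, adjusted p = 0.063 by edgeR). JUN differed by -0.60 (95% interval -1.15 to -0.04, adjusted p = 0.11) and FOSL2 by 0.65 (95% interval 0.07 to 1.22, adjusted p = 0.094). JUNB had 0.84 (95% interval -0.33 to 2.01, adjusted p = 0.27) and BATF3 had -0.80 (95% interval -1.87 to 0.26, adjusted p = 0.25). The intervals of FOS (-1.53 to 0.80), FOSB (-1.62 to 2.70), BATF (-0.85 to 1.34) and JDP2 (-1.61 to 1.12) were wide, so that differences of more than 1 log2 unit lie within them. No difference was measurable for FOSL1. JUND passed without H929 ethanol replicate 2 (1.02), H929 fluvastatin replicate 1 (1.08) or KMS11 fluvastatin replicate 2 (0.86), and without the last of these JUNB (1.33) and FOSL2 (0.84) passed too.

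GC content was set beside these values, and its part in them was not tested. JUND has the highest GC content of the members, 69.9% of its canonical transcript, followed by JUNB with 64.9%, and the other 8 lie between 51.8% and 60.7%. The 438 tested genes with a GC content of 65% or more had a median log2 fold change of 0.63 within KMS11, -0.21 within H929 and 0.87 for the difference, against 0.00, 0.03 and -0.02 for the other genes. With each library's log2 CPM taken against the mean of its own line, KMS11 fluvastatin replicate 1 had the steepest trend with GC content. It was 0.252 log2 units per 10 percentage points, against -0.157 to 0.142 in the other libraries. The trend removed below was instead taken against the mean of all 8 libraries. With the GC trend of each library removed, JUND responded by 1.39 in H929 and 1.38 in KMS11, both past the threshold, and its difference was -0.01 (adjusted p = 1 by edgeR). JUN then differed by -0.77 (adjusted p = 0.013) and FOSL2 by 0.60 (adjusted p = 0.023), both past the threshold by edgeR. So did 4858 of all 13129 genes, against 3048 without that removal. The JUND response in KMS11 was 2.01 without KMS11 fluvastatin replicate 1.

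Between the untreated lines, 7 of the 10 members passed the threshold by edgeR, 2 higher and 5 lower in KMS11. This share was close to that of all genes, of which 35.6% were higher and 36.4% lower. FOSL2 was lower in KMS11 than in H929 by a log2 fold change of -3.08 ± 0.19 (adjusted p = 4.1e-07), FOSB by -3.62 ± 0.66, and JUNB by -1.90 ± 0.38 (adjusted p = 0.0012). With 3.73 CPM on average in H929 ethanol and no counts in KMS11 ethanol, FOSL1 was at least 45.5-fold lower in KMS11, taking 3 counts per library as the limit of detection. FOSL1 and FOSB passed the filter on low counts only through H929, where they were higher. No p is therefore given for them, and their calls here are a description. JDP2 was also lower (-1.30 ± 0.46, adjusted p = 0.028). BATF (1.17 ± 0.34, adjusted p = 0.011) and BATF3 (0.89 ± 0.34, adjusted p = 0.037) were higher in KMS11.

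JUN (-0.12, 95% interval -0.55 to 0.30, adjusted p = 0.57), JUND (0.20, 95% interval -0.25 to 0.66, adjusted p = 0.39) and FOS (-0.51, 95% interval -1.35 to 0.32, adjusted p = 0.24) did not pass in the untreated lines. With the GC trend removed, JUND was higher in KMS11 by 1.73 (adjusted p = 1.1e-05) and JUNB had -0.76 (adjusted p = 0.0033), while BATF had 1.97 (adjusted p = 3.2e-05) in place of 1.17 and BATF3 had 1.68 (adjusted p = 0.00041) in place of 0.89. Genes with a GC content of 65% or more had a median of -1.41 in this comparison, against 0.01 for the others. The calls of BATF3 and JDP2 were lost in DESeq2 (0.91 and -1.29). Without H929 ethanol replicate 1, BATF (1.17), BATF3 (0.67) and JDP2 (-0.89) did not pass, without KMS11 ethanol replicate 2 the same 3 did not (1.0, 0.81 and -0.80), and without KMS11 ethanol replicate 1 BATF3 did not (0.99). JUNB lies on the opposite strand to HOOK2, FOSB to ERCC1 and JDP2 to JDP2-AS1, and the libraries were made with a stranded kit, but the strand setting of the counting is not given in the sources used here.

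**Figure D4:**
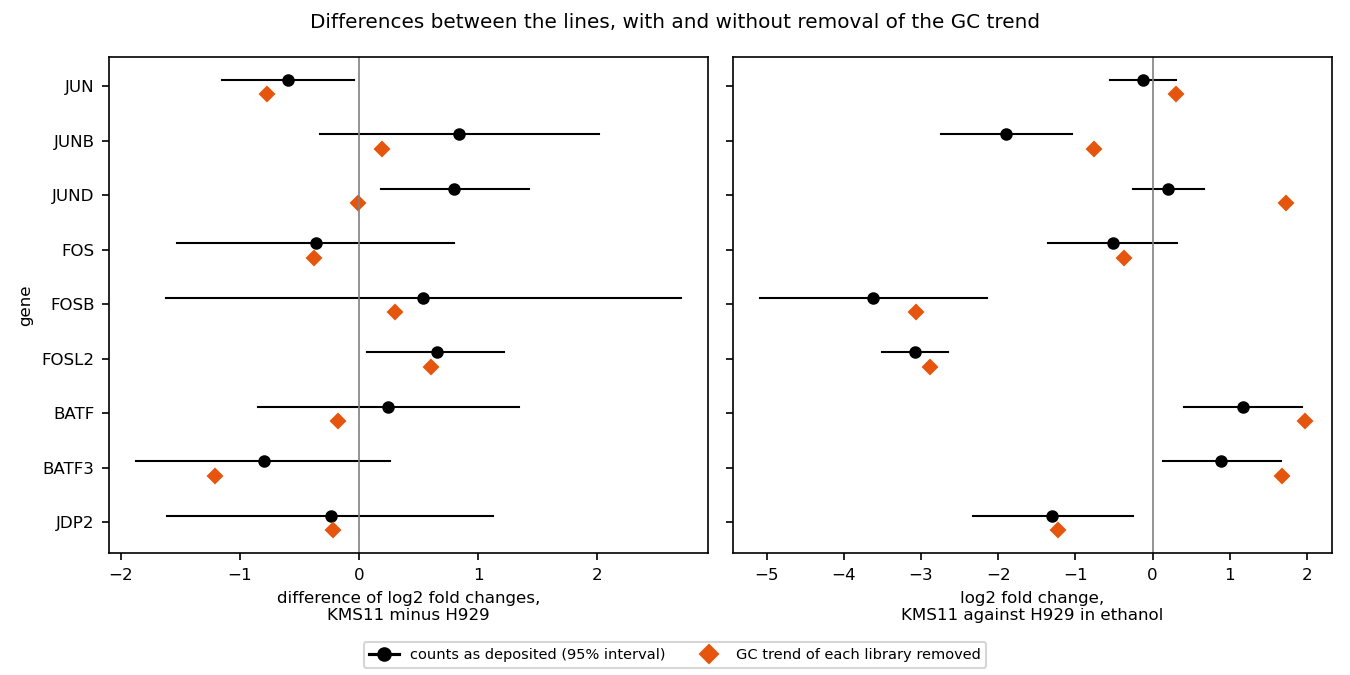
Difference between the lines for 9 AP-1 genes (y axis), as the difference of responses (left, x axis in log2 units) and as KMS11 against H929 in ethanol (right, x axis in log2 units), with counts as deposited (black, 95% interval) and after removal of the GC trend of each library (orange diamonds). JUND moves from 0.80 to -0.01 on the left and from 0.20 to 1.73 on the right, while FOSL2 moves from 0.65 to 0.60 on the left.

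The proteins with which AP-1 factors pair, and related leucine zipper factors, were described from a list of 30 genes, of which 29 were tested. Over both lines 11 were higher with fluvastatin and 2 lower, beside 6.50% and 3.93% of all genes, with a median log2 fold change of 0.33 against 0.03 for all genes. This list and those below were chosen with earlier results of these data known, so nothing is read from their shares. CREB5, a CRE-binding partner of JUN, had the largest value. It stood at 0.817 and 0.840 CPM in ethanol and at 4.92 and 9.10 CPM in fluvastatin in H929, and at 0.365 and 0.465 CPM against 8.88 and 10.7 CPM in KMS11. ATF3, a stress-induced factor that pairs with Jun proteins, stood at 5.16 to 6.55 CPM in the 4 ethanol libraries and at 24.5 to 32.7 CPM in the 4 fluvastatin libraries. DDIT3 (CHOP), which the study places in the integrated stress response, had a log2 fold change of 1.51 ± 0.20. BACH2, a B cell repressor that binds sites like those of AP-1, had 1.28 ± 0.24. The responses of BACH2 (-1.17, adjusted p = 0.0088) and DDIT3 (-0.89, adjusted p = 0.021) were smaller in KMS11 than in H929 by edgeR's test of the difference. In that test 0 genes of the list had a higher response in KMS11 and 9 a lower one, beside 11.7% and 11.5% of all genes.

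**Figure D5:**
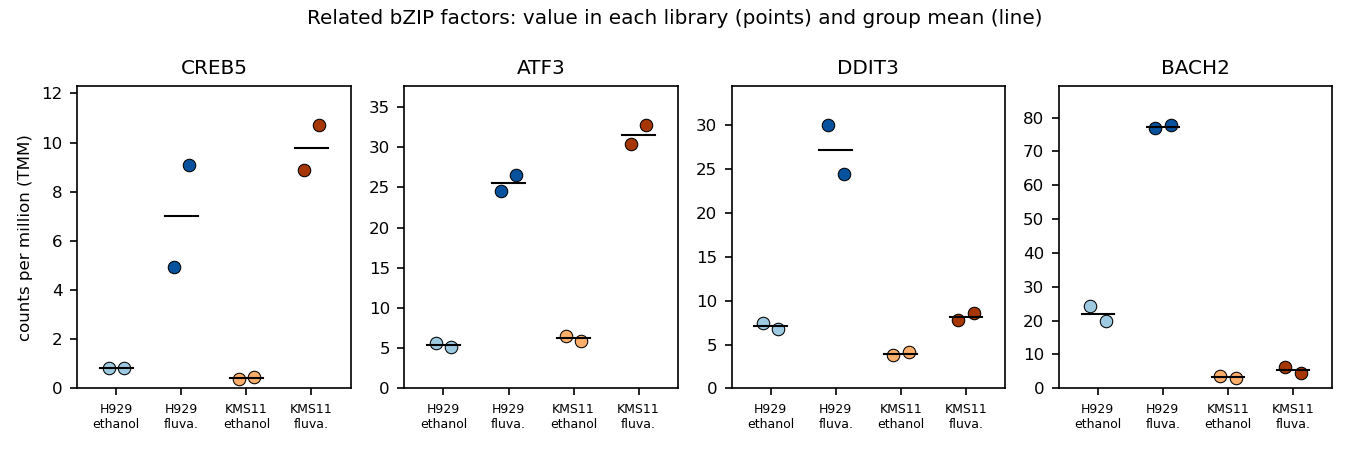
CPM of CREB5, ATF3, DDIT3 and BACH2 (y axis, each panel from 0 on its own scale) in each library (points) by line and treatment (x axis), with the group mean as a line. ATF3 lies between 24.5 and 32.7 CPM in the treated libraries of both lines, whereas BACH2 reaches 77.7 CPM in H929 and 6.17 CPM in KMS11.

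Kinases and factors upstream of AP-1, a list of 32 genes that were all tested, had 4 higher and 0 lower over both lines, beside 6.50% and 3.93% of all genes, with a median of 0.14. Within H929, 12 were higher and 4 lower, beside 22.7% and 19.3% of all genes, and within KMS11 1 was higher and 1 lower, beside 2.58% and 0.533%. MAPK8IP1, which encodes a JNK scaffold protein, had the largest value of the 4, 2.42 ± 0.30. It stood at 1.67 and 1.52 CPM in ethanol and 9.22 and 8.01 CPM in fluvastatin in H929, and at no more than 0.157 CPM in any KMS11 library. MAPK7, which encodes the kinase ERK5, had 0.65 ± 0.16. MAPK3, which encodes the kinase ERK1, had 0.72 ± 0.15 and MEF2A, a factor that binds the JUN promoter, had 1.01 ± 0.23. MAP2K6, a kinase that activates p38, fell in H929, from 2.52 and 2.36 CPM to 0.263 and 0.604 CPM. In KMS11 it stood at 3.86 and 2.73 CPM in ethanol and 3.25 and 3.55 CPM in fluvastatin. The difference between the lines was 2.51 (adjusted p = 0.0054 by edgeR). Of 32 immediate early genes outside the family, 25 were tested, with 8 higher and 1 lower over both lines, beside 6.50% and 3.93% of all genes, and a median of 0.52. KLF2, a zinc finger factor, had the largest value of the higher genes, 2.67 ± 0.18. It stood at 10.5 and 7.36 CPM in ethanol and 57.6 and 48.0 CPM in fluvastatin in H929, and at 0.287 and 0.328 CPM against 2.56 and 2.11 CPM in KMS11. KLF6 and PPP1R15A, the latter encoding a phosphatase subunit that acts on eIF2, were among the higher genes, with 1.86 ± 0.21 and 1.10 ± 0.14. ZFP36L1, which encodes an RNA-binding protein that speeds the decay of mRNAs, had 1.65 ± 0.37.

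Genes described elsewhere as AP-1 targets numbered 36, of which 23 were tested, and 6 were higher and 0 lower over both lines, beside 6.50% and 3.93% of all genes, with a median of 0.10 against 0.03 for all genes. Within H929, 9 were higher and 2 lower with a median of 0.03, beside 22.7% and 19.3% of all genes, and within KMS11 4 were higher and 1 lower with a median of 0.14, beside 2.58% and 0.533%. EZR, which encodes the membrane linker ezrin, stood at 400 and 373 CPM in ethanol and 1447 and 1431 CPM in fluvastatin in H929, and at 192 and 202 against 405 and 378 CPM in KMS11. LMNA, which encodes lamins A and C, had a log2 fold change of 1.35 ± 0.15, CD44, a receptor for hyaluronan, had 1.33 ± 0.15, and VIM, the intermediate filament vimentin, had 1.06 ± 0.13. EZR (-0.91, adjusted p = 0.0012), CD44 (-0.69, adjusted p = 0.018) and VIM (-0.61, adjusted p = 0.0092) responded less in KMS11 than in H929. These lists were not tested as sets.

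The 5 genes whose levels were most like those of JUN were MYO1D (Pearson's r = 0.982), TSC22D3 (0.979), CERT1 (0.978), TIMP2 (0.975) and DPYSL2 (0.973), over log2 CPM of the 8 libraries and among 10539 genes. The points share their lines, treatments and libraries, and the correlation is a description. TSC22D3, which encodes a leucine zipper protein known as GILZ, stood at 27.7 and 19.5 CPM in ethanol and 417 and 352 CPM in fluvastatin in H929, and at 34.2 and 31.5 against 176 and 135 CPM in KMS11. MYO1D, a myosin, stood at 35.5 to 39.5 CPM in the 4 ethanol libraries, 96.8 and 94.8 CPM in H929 fluvastatin and 67.8 and 70.4 CPM in KMS11 fluvastatin. CERT1, TIMP2 and DPYSL2 had log2 fold changes of 0.72, 0.53 and 0.79 over both lines, far below that of JUN.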

How the data were processed

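RNA-seq was measured in 8 libraries, 2 from each of H929 and KMS11 in ethanol or 2 µM fluvastatin, and grouped by the sample labels. The authors made stranded total RNA libraries after ribosomal depletion, aligned paired reads to hg38 with STAR 2.5.2b and estimated genes with RSEM 1.3.0, per the labels. The deposited values used here were expected counts, with no normalization, and TPM, scaled in RSEM by the effective length of each gene. The deposited FPKM values were not used. Fragments that match several genes are divided by RSEM, so values of low genes can be fractional.

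Expected counts were rounded, and 13129 protein-coding genes (GENCODE release 44, which holds 57392 of the identifiers) passed filterByExpr (minimum count 10, minimum total count 15). Library sizes were protein-coding totals with TMM factors. Tests were edgeR 4.0.16 quasi-likelihood tests in R 4.3.3 with Benjamini-Hochberg adjustment over all 13129 genes and a threshold of 0.05. The treatment contrast over both lines had terms for line and treatment, so its errors also hold any difference between the responses of the lines. The other contrasts were taken from 1 model with a mean for each of the 4 groups. The common dispersion, a measure of the spread between libraries, was 0.0316 in the first model and 0.0125 in the second. SEs were obtained as log2 fold change over √F. The fits were tested on simulated data. Depth was 26702515 to 41910446 counts per library, and with 2 replicates the spread between libraries limits precision for all but low genes.

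The members and gene lists were chosen with earlier results of these data known. All members are named. From each other list at most 4 genes per comparison qualified for naming, those past the threshold with the largest absolute log2 fold change over both lines, of which some are not reported here, and the 5 genes most like JUN were taken by Pearson's correlation of log2 CPM (prior count 1) among genes with a mean of at least 1. Alternatives were DESeq2 1.42.0, limma 3.58.1 on log2(TPM + 1) and log2(TPM + 0.1), median-of-ratios and library size scaling, no filter, a minimum count of 50, all annotated genes, a replicate block, removal of each library's GC trend (spline with 4 degrees of freedom), an adjusted p under 0.01, no cell line term and leaving out each library. Promoters came from RefSeq.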

Additional observations from a re-analysis of the deposited data

Results flagged for a closer look

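In the main edgeR fit, no member of the AP-1 family had a response that differed between the lines past the threshold. With the GC trend of each library removed JUN (-0.77) and FOSL2 (0.60) passed, as did 4858 of all 13129 genes, against 3048 in the main fit. JUND passed with DESeq2 (0.75), with no filter on low counts (0.81) and with the replicate block (0.80). Among the other genes reported here by name, 17 had a response that differed past the threshold, 15 of them with a lower response in KMS11. The test was edgeR's quasi-likelihood test of the difference (adjusted p from 0.00015 to 0.045). All 17 kept their direction and stayed past the threshold with the GC trend of each library removed. These genes were named partly because they passed this test, so their number and direction describe the naming. That they passed again in the same libraries, in a setting that called more genes, adds no support. Over all genes, 11.7% had a higher and 11.5% a lower response in KMS11. In the whole lists, 0 of 29 related leucine zipper factors were higher and 9 lower, 2 and 7 of 32 upstream kinases and factors, 1 and 6 of 25 immediate early genes, and 2 and 7 of 23 genes described as AP-1 targets. Values are the log2 fold change in KMS11 minus that in H929. Of the related leucine zipper factors, BACH2 had -1.17, DDIT3 -0.89 and CEBPB -0.59. Of the upstream kinases and factors, MAP2K6 had 2.51, MAP3K1 -0.60, MAP3K5 -1.01, MEF2A -1.18 and MEF2C -1.44. Of the immediate early genes, KLF6 had -1.08, ZFP36L1 -1.58, BTG1 -0.67, BTG2 -0.80 and TRIB1 0.69. Of the genes described as AP-1 targets, EZR had -0.91, CD44 -0.69, VIM -0.61 and BCL2L11 -1.17. Groups of 2 libraries are too small to look for single libraries that stand apart.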

How the results depend on the processing

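Over both lines 4 members were called, and over single libraries left out the count was 3 to 4. It was 1 with no cell line term, in which JUN alone passed. Within H929 it was 4 and 3 to 5 without single libraries. Within KMS11 it was 4, and 2 with limma on log2(TPM + 1), 2 with limma on log2(TPM + 0.1), 2 at an adjusted p under 0.01 and 2 to 5 without single libraries. For the difference of responses it was 0, and 1 with DESeq2 and 1 with no filter (both JUND), 1 with each limma fit, 2 with the GC trend removed, 3 with the GC trend removed and the replicate block, and 0 to 3 without single libraries. Of all 13129 genes, 3048 were called for the difference in the main fit, 4858 with the GC trend removed and 6082 with the block added. The call of each limma fit was FOSL1, whose response was not measurable in KMS11. For the untreated lines it was 7, and 4 at an adjusted p under 0.01 and 4 to 7 without single libraries. JUN passed in all settings of each treatment contrast. The causes were not tested.

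Some values changed sign. For BATF they were -0.08 over both lines, 0.02 in H929, -0.15 in KMS11 and -0.18 for the difference with the GC trend removed, and -0.08, 0.02, -0.15 and -0.17 with the block added. With limma BATF had 0.12 and 0.26 in H929, -0.07 and -0.10 in KMS11 and -0.19 and -0.37 for the difference. BATF3 had 0.03 in KMS11 in both limma fits, and in the first of them FOSB (-0.07) and FOSL2 (from 0.65 to -0.02) reversed for the difference. JUND went from 0.80 to -0.01 for the difference with the GC trend removed (and -0.05 with the block). JUN in the untreated lines was 0.17 and 0.35 with limma, where the median of all genes was 0.31 and 0.46, and 0.30 with the GC trend removed, with or without the block. Without single libraries the ranges that crossed 0 were, over both lines, JUNB -0.09 to 0.51 and BATF -0.14 to 0.22. In H929 they were JUNB -0.52 to 0.19, FOSB -0.25 to 0.83 and BATF -0.12 to 0.07. In KMS11 they were JUNB -0.00 to 1.17, FOSB -0.35 to 1.50, BATF -0.23 to 0.54 and BATF3 -0.47 to 0.23. For the difference they were FOS -0.93 to 0.02, FOSB -0.57 to 1.29, BATF -0.18 to 0.60 and JDP2 -0.72 to 0.52. In the untreated lines they were JUN -0.33 to 0.14, JUND -0.01 to 0.47 and FOS -0.89 to 0.05.

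Deviations of same-numbered libraries from their group means correlated by 0.774 in H929 and by -0.078 in KMS11 over 5555 genes. Same-numbered libraries thus deviated together in H929 and not in KMS11, and the main fits did not pair them. With the replicate block, FOSL2 did not pass over both lines (0.74) and passed in H929 (0.44), JUND passed for the difference (0.80, count 1), and no other call of a member changed. A fit that leaves out a library assumes that the remaining library of that group varies like the other groups.

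Over all genes, 854 were higher and 516 lower over both lines, against 323 and 775 with limma on log2(TPM + 1), 406 and 910 with log2(TPM + 0.1) and 1351 and 1851 with the GC trend removed. The last gave 2961 and 4540 in H929 against 2982 and 2529. In KMS11, 339 and 70 became 127 and 96 with log2(TPM + 1) and 942 and 747 with the GC trend removed. For the difference, 1542 and 1506 became 757 and 1278, 725 and 1244 with log2(TPM + 0.1), and 3176 and 1682 with the GC trend removed. For the untreated lines, 4680 and 4774 became 6644 and 2477 with log2(TPM + 1) and 6738 and 2579 with log2(TPM + 0.1). The total of called genes over both lines was 1370, and it was 2556 with DESeq2, 158 with the replicate block, 267 with the block and the GC trend removed, 4 with no cell line term, 161 at an adjusted p under 0.01, and from 191 (H929 ethanol replicate 2 left out) to 1697 (KMS11 fluvastatin replicate 2 left out). Any 1 of the H929 libraries left out gave 191 to 369, and KMS11 ethanol replicate 2 left out gave 702. In H929 the total was 5511, against 3538 at an adjusted p under 0.01. In KMS11 it was 409, and 926 with DESeq2, 1098 with no filter, 158 with log2(TPM + 0.1), 1637 with the block, 3376 with the block and the GC trend removed and 129 at an adjusted p under 0.01. Leaving out replicate 1 or 2 of KMS11 ethanol gave 63 or 72, and leaving out KMS11 fluvastatin replicate 2 gave 2148. For the difference it was 3048, and 6082 with the block and the GC trend removed, 1258 at an adjusted p under 0.01 and 1309 (KMS11 ethanol replicate 1 left out) to 4269 (KMS11 fluvastatin replicate 2 left out) over single libraries, with 1906 for H929 ethanol replicate 1, 1757 for H929 fluvastatin replicate 2 and 1634 for KMS11 ethanol replicate 2.

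In KMS11, FOSL1 had 0 to 1 counts and FOSB and JDP2 had 3 to 41 counts per library.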
